A study of Rattus norvegicus with 9 samples.

Results

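The genes described are 6 caspases (Casp1, Casp2, Casp4, Casp6, Casp8 and Casp9) with Apaf1 and Diablo. They were taken by symbol from the table of all genes, and each of the 8 matched a single row among 34092. The rule used symbols and no expression values, although earlier results of these data were known when the genes were proposed. Of the 8, 5 passed the filter on low values and were tested (Casp2, Casp9, Casp4, Apaf1 and Diablo), and Casp1, Casp6 and Casp8 fell under it, so that they are described by their levels and, for Casp1 and Casp6, by values from a fit without the filter.

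Caspases are cysteine proteases made as inactive precursors, and cleavage or dimerization of the precursor, rather than new mRNA, switches them on. In the mitochondrial route to apoptosis, cytochrome c leaves the mitochondria and binds Apaf1, Apaf1 assembles into the apoptosome, and the apoptosome activates the initiator caspase-9, which cleaves the executioner caspases. Inhibitor of apoptosis proteins (IAPs) such as Xiap hold the active caspases in check until Diablo, also called Smac, is released from mitochondria and binds them. Caspase-2 and caspase-8 are initiators that are activated on other platforms, the PIDDosome and the death receptors, caspase-6 is an executioner, and caspase-1 and caspase-4 act in inflammation and pyroptosis. Hippocampal neurons are a classic setting for caspase-dependent death after seizures.

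RNA was sequenced from rat primary hippocampal neurons of wild-type fetuses taken on embryonic day 17 and studied at 7 days in vitro. The Control group received vehicle, the NPCT group 1 nM human NPCT (aminoprocalcitonin) and the PCT group 1 nM human PCT (procalcitonin, the parent peptide of NPCT) for 24 h, with 3 libraries in each group and 9 in all. The methods speak of RNA extracted from pooled biological triplicates, whereas the labels number 3 replicates per group, so p-values measure the spread between libraries, which may be partly technical. The cultures were grown without mitotic inhibitors. The level is given as FPKM (fragments scaled to the length of the transcript and to the size of the library), which allows genes of different length to be compared.

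Libraries held 14527524 to 15360559 fragments in the Control group, 13573056 to 15224624 in the NPCT group and 14106698 to 17211642 in the PCT group. The labelled cell type was checked against neuronal markers, of which 10 of 10 were measured with a summed level of 2119 to 2372 FPKM per library, but astrocyte markers (9 of 9) were as abundant at 2122 to 2681 FPKM. NPCT replicate 3 stood apart by its microglial markers, which summed to 252 FPKM, against 62.7 to 68.2 in the other NPCT libraries, 51.3 to 69.2 in Control and 20.0 to 25.3 in PCT. PCT replicate 3 differed most from its own group, with a chi-square per degree of freedom of 18.9 to 21.6 over genes with at least 10 fragments in the pair, where the other pairs of libraries within groups gave 4.16 to 10.8 and sampling alone gives 1.

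Positions follow the deposited table, whose build is Rnor_6.0. Casp2 lies on chromosome 4 from 71652354 to 71670239, Casp9 on chromosome 5 from 160355833 to 160373778, Casp8 on chromosome 9 from 65614142 to 65662106, Casp6 on chromosome 2 from 230186198 to 230198555 and Diablo on chromosome 12 from 38490230 to 38503330, each on the plus strand. Apaf1 is on the minus strand of chromosome 7 from 31699885 to 31784192. The inflammatory caspases are neighbours on the plus strand of chromosome 8, with Casp1 from 2604962 to 2614631 and Casp4 from 2635851 to 2651652, followed by Casp12 from 2659865 to 2686160. These 3 genes are the only ones that the table lists within this stretch of 81.2 kb. The library kit is not stated to mark strand, and the only other genes of the table that overlap a member are small RNA genes, 1 in Casp2, 2 in Apaf1 and 1 in Diablo, with a mean of at most 3.65 FPKM.

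RefSeq promoter sequences (build GRCr8, 300 bases, from 250 before to 50 after the gene start) were at hand for 6 of the 8 genes, all but Casp4 and Casp8. Shown are those of Casp2, Casp9 and Apaf1, whose NPCT libraries did not overlap the Control libraries in FPKM, and that of Casp1, whose PCT libraries did not. Of all tested genes, 40.3% did not overlap Control with NPCT and 24.9% with PCT. Capitals mark every match, on either strand, to an NF-kB motif (GGG and CC with any 5 bases between), an ISRE, the element of interferon-stimulated genes (TTTC and TTTC with any 2 bases between), or a GAS, bound by STAT factors (TTC and GAA with any 3 bases between), and overlapping matches run together.
Casp2: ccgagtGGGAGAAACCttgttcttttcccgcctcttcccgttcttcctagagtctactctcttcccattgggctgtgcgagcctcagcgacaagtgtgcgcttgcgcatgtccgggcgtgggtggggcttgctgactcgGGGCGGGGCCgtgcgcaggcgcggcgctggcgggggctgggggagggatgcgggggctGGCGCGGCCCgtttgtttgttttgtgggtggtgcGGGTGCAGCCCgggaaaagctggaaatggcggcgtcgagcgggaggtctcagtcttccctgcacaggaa
Casp9: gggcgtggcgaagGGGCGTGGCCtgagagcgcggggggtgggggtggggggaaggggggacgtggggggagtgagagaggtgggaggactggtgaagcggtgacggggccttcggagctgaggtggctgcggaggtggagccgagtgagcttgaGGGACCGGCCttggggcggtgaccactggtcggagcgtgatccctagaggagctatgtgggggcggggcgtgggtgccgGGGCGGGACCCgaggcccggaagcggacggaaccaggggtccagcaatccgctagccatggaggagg
Apaf1: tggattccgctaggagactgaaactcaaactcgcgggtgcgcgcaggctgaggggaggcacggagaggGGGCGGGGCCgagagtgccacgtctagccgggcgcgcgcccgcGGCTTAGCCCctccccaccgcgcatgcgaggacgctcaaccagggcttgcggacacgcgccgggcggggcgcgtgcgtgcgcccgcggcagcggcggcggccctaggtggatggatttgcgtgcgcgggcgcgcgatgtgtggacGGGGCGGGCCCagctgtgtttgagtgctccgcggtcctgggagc
Casp1: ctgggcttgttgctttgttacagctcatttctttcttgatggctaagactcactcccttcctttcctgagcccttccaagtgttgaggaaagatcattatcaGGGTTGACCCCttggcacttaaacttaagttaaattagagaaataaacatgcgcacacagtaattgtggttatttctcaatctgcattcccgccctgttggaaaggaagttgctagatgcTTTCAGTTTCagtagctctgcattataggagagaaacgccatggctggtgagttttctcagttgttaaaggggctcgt
The windows lie at chr4:72116107-72116406 on the plus strand for Casp2, chr5:159391824-159392123 on the plus strand for Casp9, chr7:27466723-27467022 on the minus strand for Apaf1 and chr8:10872580-10872879 on the plus strand for Casp1. The NF-kB letters matched 5 times in the Casp2 promoter, 4 times in each of Casp9 and Apaf1, 2 times in Casp1 and in neither Casp6 nor Diablo, and 47.3% of all 33469 promoters of this length hold at least 1 such match. The ISRE letters matched in Casp1 alone among the 6 promoters, and 3.92% of all promoters hold them. The GAS letters, held by 8.87% of all promoters, matched in none of the 6. The number of CpG dinucleotides was 43 in Apaf1, 27 in Casp2, 24 in Casp9, 16 in Casp6, 5 in Diablo and 4 in Casp1, beside a median of 7 over all promoters. A match of letters is a description and not a binding site.

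In the Control cultures the 8 genes spanned a wide range of levels. Casp4 (28.8 ± 2.42 FPKM) and Diablo (26.8 ± 1.55 FPKM) were the most abundant, followed by Apaf1 (13.9 ± 0.354 FPKM), Casp2 (9.77 ± 0.623 FPKM) and Casp9 (7.15 ± 0.634 FPKM), while Casp1 (0.580 ± 0.207 FPKM), Casp6 (0.435 ± 0.360 FPKM) and Casp8 (0.331 ± 0.144 FPKM) stayed under 1 FPKM (mean ± SD, n = 3 libraries). Over all 9 libraries the mean of Diablo (27.1 FPKM) was above that of 78.1% of the tested genes and the mean of Casp9 (7.57 FPKM) above that of 44.8%. Diablo and Casp4 could not be placed in order, since Diablo was the higher in 4 of 9 libraries. Casp4 exceeded Apaf1, and Apaf1 exceeded Casp2, in 9 of 9 libraries. Casp2 exceeded Casp9 in 8 of 9 libraries, the exception being NPCT replicate 3. The 3 low genes lay far below Casp9 in every library and did not separate from each other in any group. Although Casp1 and Casp4 are neighbours in the genome, the mean level of Casp4 was 60.8 times that of Casp1.

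**Figure D1:**
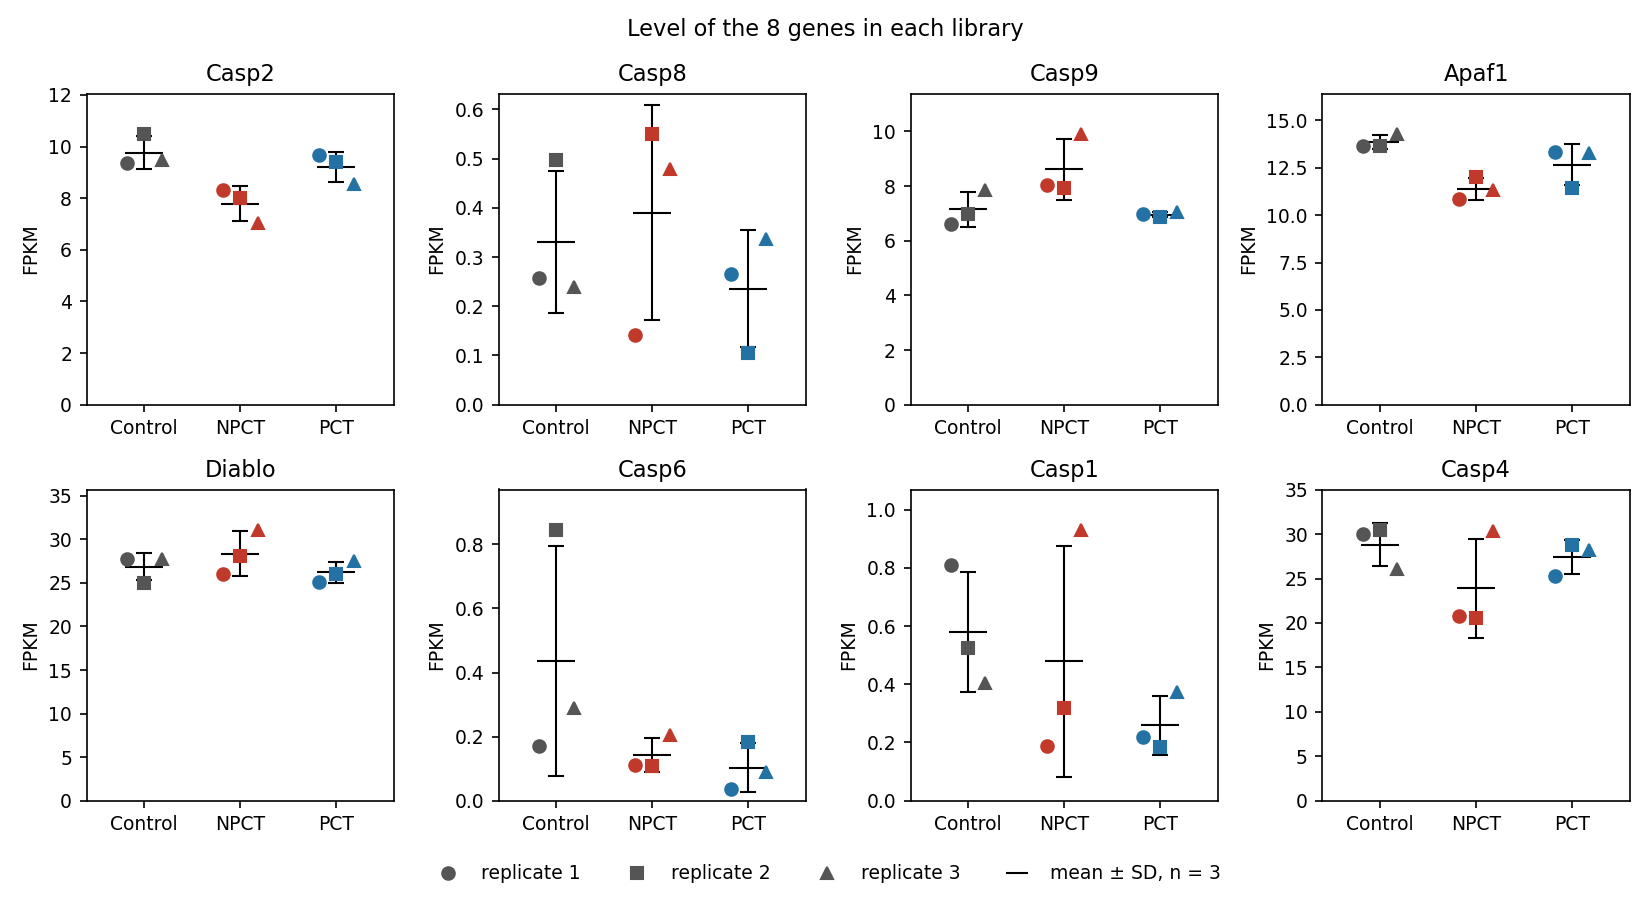
Level of each of the 8 genes (FPKM, linear axis from 0) in the Control, NPCT and PCT groups, with 1 symbol per library and black bars for the mean ± SD (n = 3). Casp2 and Apaf1 sit lower and Casp9 higher in the 3 NPCT libraries than in the 3 Control libraries, and Casp1, Casp6 and Casp8 stay under 1 FPKM throughout.

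The first comparison asked whether NPCT changed the apoptotic machinery at the level of mRNA. Calls required both a fold change above 1.5 and a limma p of at most 0.05 after Benjamini-Hochberg adjustment. No member was called. The count was 0 of 5 tested members, where 0.219% of all 15958 tested genes were called, and limma-voom on the recovered fragments also gave 0, with 357 genes called over all in place of 35. The number of genes called over all ran from 0 to 561 when a library was left out. With all 9 libraries the smallest adjusted p of any gene was 0.0493 in limma. At such a share, a count of 0 is no result about the members. At an unadjusted p under 0.05, 3 of 5 members differed, with Casp2 and Apaf1 lower and Casp9 higher with NPCT, and 29.3% of all genes passed the same limit. For the same 3 members the 3 NPCT libraries lay entirely on one side of the 3 Control libraries, which held for 40.3% of all genes. The median log2 fold change of the 5 tested members was -0.28, and that of all tested genes 0.0062. Marker genes of cell types passed the same unadjusted limit in part. Of 10 neuronal markers, 5 were lower and 1 higher, and of 9 oligodendrocyte lineage markers 4 were higher. The mitochondrial genome gave 3.70% to 4.17% of fragments in NPCT libraries against 5.18% to 5.84% in Control. Their part in the values of the members was not tested.

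Apaf1, the scaffold of the apoptosome, measured 13.7, 13.7 and 14.3 FPKM in Control and 10.9, 12.03 and 11.3 FPKM with NPCT. The highest NPCT library was thus below the lowest Control library. The log2 fold change was -0.28 (standard error 0.080, unadjusted p = 0.00678, adjusted p = 0.0693 in limma). This difference shrank to -0.14 (adjusted p = 0.355) once a trend with gene length was taken out of each library, and the transcript length of Apaf1 in the table is 6099 bases.

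Casp9, the initiator that docks on Apaf1, measured 6.61, 6.99 and 7.85 FPKM in Control and 8.03, 7.91 and 9.90 FPKM with NPCT. Every NPCT library was above every Control library, with a narrow gap of 7.91 against 7.85 FPKM at the nearest pair. The log2 fold change was 0.26 (standard error 0.108, unadjusted p = 0.0380, adjusted p = 0.146 in limma). The unadjusted p was under 0.05 in 14 of 19 alternative settings. It was 0.142 (log2 fold change 0.16) without NPCT replicate 3, the library with the highest value and with the highest microglial markers, 0.127 without Control replicate 1, 0.0900 without Control replicate 2, 0.0600 in the fit of the 2 groups alone and 0.050002 without PCT replicate 1. Since Apaf1 and Casp9 lay on opposite sides of Control, the ratio of Casp9 to Apaf1 was 0.658 to 0.875 in NPCT libraries, 0.483 to 0.549 in Control libraries and 0.524 to 0.599 in PCT libraries. The separation of NPCT from Control in this ratio follows from those directions and is no further result. The ratio was not corrected for the gene length trend.

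Casp2, the initiator of the PIDDosome, measured 9.35, 10.5 and 9.47 FPKM in Control and 8.33, 7.998 and 7.03 FPKM with NPCT. The NPCT libraries were lower without overlap. The log2 fold change was -0.33 (standard error 0.094, unadjusted p = 0.00716, adjusted p = 0.0705 in limma). The unadjusted p of Casp2 stayed under 0.05 in 19 of 19 alternative settings.

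Diablo, the IAP antagonist, measured 27.7, 25.0 and 27.8 FPKM in Control and 26.0, 28.1 and 31.1 FPKM with NPCT, so the groups overlapped. Its log2 fold change was 0.08, with a 95% interval from -0.10 to 0.26 (adjusted p = 0.552 in limma), and it was 0.0062 without NPCT replicate 3 and 0.14 without NPCT replicate 1.

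Casp4, the inflammatory caspase that cleaves gasdermin D, measured 30.0, 30.5 and 26.0 FPKM in Control and 20.8, 20.5 and 30.3 FPKM with NPCT. NPCT replicates 1 and 2 were the lowest of all 9 libraries, whereas NPCT replicate 3 reached the level of Control. The coefficient of variation was 23.4% in the NPCT group, 8.40% in Control and 6.92% in PCT. The log2 fold change was -0.29 (standard error 0.145, adjusted p = 0.216 in limma), and it was -0.48 without NPCT replicate 3 (unadjusted p = 0.000863, adjusted p = 0.130). With each of the 9 libraries left out in turn, the value ran from -0.48 to -0.19.

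The 95% intervals of 4 of the 5 tested members lay within a 1.5-fold change in either direction, and the interval of Casp4 reached -0.62 on the log2 scale. The plot of fold changes shows these intervals beside those of the other comparisons.

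**Figure D2:**
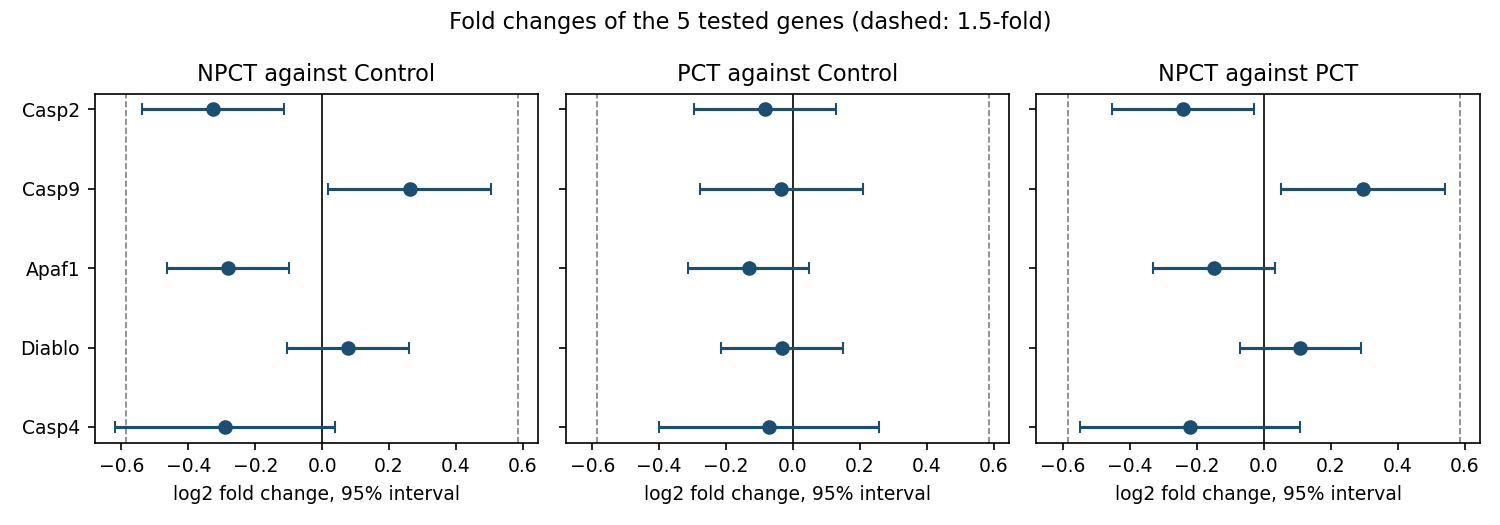
Log2 fold change (points) and 95% interval (bars, limma) of the 5 tested genes in each of the 3 comparisons, with dashed lines at a 1.5-fold change. The intervals of Casp2, Apaf1 and Casp9 exclude 0 for NPCT against Control, those of all 5 genes include 0 for PCT against Control, and those of Casp2 and Casp9 exclude 0 for NPCT against PCT.

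With PCT, the tested members stayed close to Control. The count of called members was 0 of 5, where 2.31% of all tested genes were called, and limma-voom also gave 0. The count at an unadjusted p under 0.05 was 0 of 5, where 18.9% of all genes passed. The median log2 fold change of the 5 members was -0.07, beside 0.0046 over all tested genes. The 95% intervals of all 5 lay within a 1.5-fold change, from -0.40 at the lowest to 0.26 at the highest.

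Casp2 measured 9.68, 9.40 and 8.56 FPKM with PCT, within or just under the Control range, and its log2 fold change was -0.08 (adjusted p = 0.701). Casp9 measured 6.98, 6.85 and 7.04 FPKM with PCT, a log2 fold change of -0.03 (adjusted p = 0.909) whose sign turned to 0.03 without Control replicate 3. Apaf1 measured 13.3, 11.4 and 13.3 FPKM with PCT. These values were all under the Control range, which made Apaf1 the only tested member without overlap between PCT and Control, a property of 24.9% of all tested genes. Its log2 fold change was -0.13 (standard error 0.080, adjusted p = 0.422 in limma), and it was -0.06 (unadjusted p = 0.438) without PCT replicate 2. Diablo measured 25.2, 26.0 and 27.6 FPKM and Casp4 25.2, 28.8 and 28.2 FPKM with PCT, and both overlapped Control, with log2 fold changes of -0.03 (adjusted p = 0.884) and -0.07 (adjusted p = 0.852). With each library left out in turn, these 2 values ran from -0.0801 (without Control replicate 2) to -0.00501 (without PCT replicate 1) for Diablo and from -0.141 (without Control replicate 3) to -0.0152 (without PCT replicate 1) for Casp4, and that of Casp2 from -0.122 (without PCT replicate 1) to -0.0308 (without Control replicate 2). Once the gene length trend was removed, the value was -0.116 for Diablo (adjusted p = 0.451 in limma) and -0.159 for Casp4 (adjusted p = 0.584).

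The comparisons of NPCT and of PCT with Control share the Control libraries, so the difference between the peptides was tested directly. NPCT is the amino-terminal fragment of PCT, and both were applied at 1 nM for 24 h. In this contrast 0 of 5 members were called, also with limma-voom, whereas 5.75% of all tested genes were called. At an unadjusted p under 0.05, 2 of 5 members differed, Casp2 lower and Casp9 higher with NPCT, and 33.1% of all genes passed. At the same limit 12 of 14 microglial and 7 of 9 astrocyte markers were higher with NPCT and none was lower, and the mitochondrial genome gave 3.70% to 4.17% of fragments with NPCT and 4.11% to 6.21% with PCT. Their part in the values of the members was not tested. The same 2 members had libraries that did not overlap, as had 33.4% of all genes. The median log2 fold change of the 5 members was -0.15, beside -0.0076 over all tested genes.

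Casp9 was at 7.91 to 9.90 FPKM with NPCT and at 6.85 to 7.04 FPKM with PCT. The log2 difference was 0.30, with a 95% interval from 0.05 to 0.54 (unadjusted p = 0.0225, adjusted p = 0.0925 in limma), and it was 0.19 (unadjusted p = 0.0806) without NPCT replicate 3 and 0.29 (unadjusted p = 0.0531) without PCT replicate 2. Casp2 was at 7.03 to 8.33 FPKM with NPCT and at 8.56 to 9.68 FPKM with PCT. The log2 difference was -0.24, with a 95% interval from -0.45 to -0.03 (unadjusted p = 0.0299, adjusted p = 0.110 in limma), and it was -0.16 (unadjusted p = 0.0882) once the gene length trend was removed. The unadjusted p of Casp2 was under 0.05 in 14 of 19 alternative settings, and it was also above that limit without NPCT replicate 3 (0.0960), PCT replicate 1 (0.0969) or PCT replicate 2 (0.0754) and in the fit of NPCT and PCT alone (0.0547). For Apaf1 the log2 difference was -0.15 (95% interval from -0.33 to 0.03), for Diablo 0.11 (from -0.07 to 0.29) and for Casp4 -0.22 (from -0.55 to 0.11), and all 3 overlapped between the peptides. The value of Casp4 was -0.41 without NPCT replicate 3 (adjusted p = 0.0361, with a fold change still under 1.5), -0.12 without NPCT replicate 2 and -0.13 without NPCT replicate 1, and that of Apaf1 was -0.03 once the gene length trend was removed. The value of Diablo was 0.04 without NPCT replicate 3 and 0.17 without NPCT replicate 1. The intervals of all 5 members lay within a 1.5-fold difference, so a larger difference between NPCT and PCT lay outside the 95% intervals for these transcripts.

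The 3 genes under the filter rested on few fragments, so that only large differences could have been detected. Counting alone gives a coefficient of variation of 27.4% to 57.7% per library for them, against 2.82% to 5.51% for the tested members. Casp8, the death receptor initiator, gave 8, 15 and 7 fragments in Control, 4, 16 and 15 with NPCT and 8, 3 and 12 with PCT, and the groups overlapped. In FPKM its means were 0.331 in Control, 0.390 with NPCT and 0.236 with PCT.

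Casp6, the executioner that cleaves nuclear lamins, gave 5, 24 and 8 fragments in Control, 3, 3 and 6 with NPCT and 1, 5 and 3 with PCT. Control replicate 2 held 24 of the 37 Control fragments, and Control overlapped both peptide groups. In the fit without a filter, the log2 fold change of PCT against Control was -1.25 (unadjusted p = 0.0347, adjusted p = 0.282 in limma), and it was -0.74 (unadjusted p = 0.0951) without Control replicate 2. The same fit gave -0.96 for NPCT against Control (unadjusted p = 0.0893, adjusted p = 0.314 in limma). Between NPCT and PCT the difference was 0.30 (unadjusted p = 0.570 in limma).

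Casp1, which matures the cytokine interleukin-18, gave 19, 12 and 9 fragments in Control, 4, 7 and 22 with NPCT and 5, 4 and 10 with PCT. In FPKM these were 0.809, 0.526 and 0.406 in Control, 0.187, 0.319 and 0.930 with NPCT and 0.220, 0.184 and 0.372 with PCT. All 3 PCT libraries were below the Control range in FPKM, but in fragments PCT replicate 3 (10) was above Control replicate 3 (9). Of all tested genes, 24.9% did not overlap between PCT and Control in FPKM. NPCT replicate 3 was the highest of the 9 while NPCT replicate 1 was among the lowest. In the fit without a filter the log2 fold change of PCT against Control was -0.91 (unadjusted p = 0.105, adjusted p = 0.473 in limma).

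Casp1 is expressed by microglia, and the cultures held microglial RNA, so the marker levels stand beside it. Of 15 microglial markers listed, 14 were in the table and tested, and no marker was at 0 in any library. With PCT, 14 of 14 had a lower mean than Control on the log scale, 6 of 14 were called lower (2.31% of all genes were called), and 10 of 14 had all 3 PCT libraries below all 3 Control libraries (24.9% of all genes did not overlap). All 14 were highest in NPCT replicate 3, where Casp1, Casp9 and Diablo were also the highest of the 9 libraries. This library ranked 2 of 9 for Casp4, 3 for Casp6 and Casp8, 8 for Apaf1 and 9, the lowest, for Casp2. The share of all genes that were highest in it was not counted. Because RNA came from whole cultures, fewer cells of a type and less RNA per cell cannot be told apart. The part of microglial RNA in the levels of Casp1, Casp4, Casp9 and Diablo was not tested. The plot of marker levels beside the caspases shows the libraries side by side. Astrocyte markers summed to 2461 to 2640 FPKM in Control, 2412 to 2681 with NPCT and 2122 to 2193 with PCT, where 5 of 9 were called lower, again beside 2.31% of all genes.

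**Figure D3:**
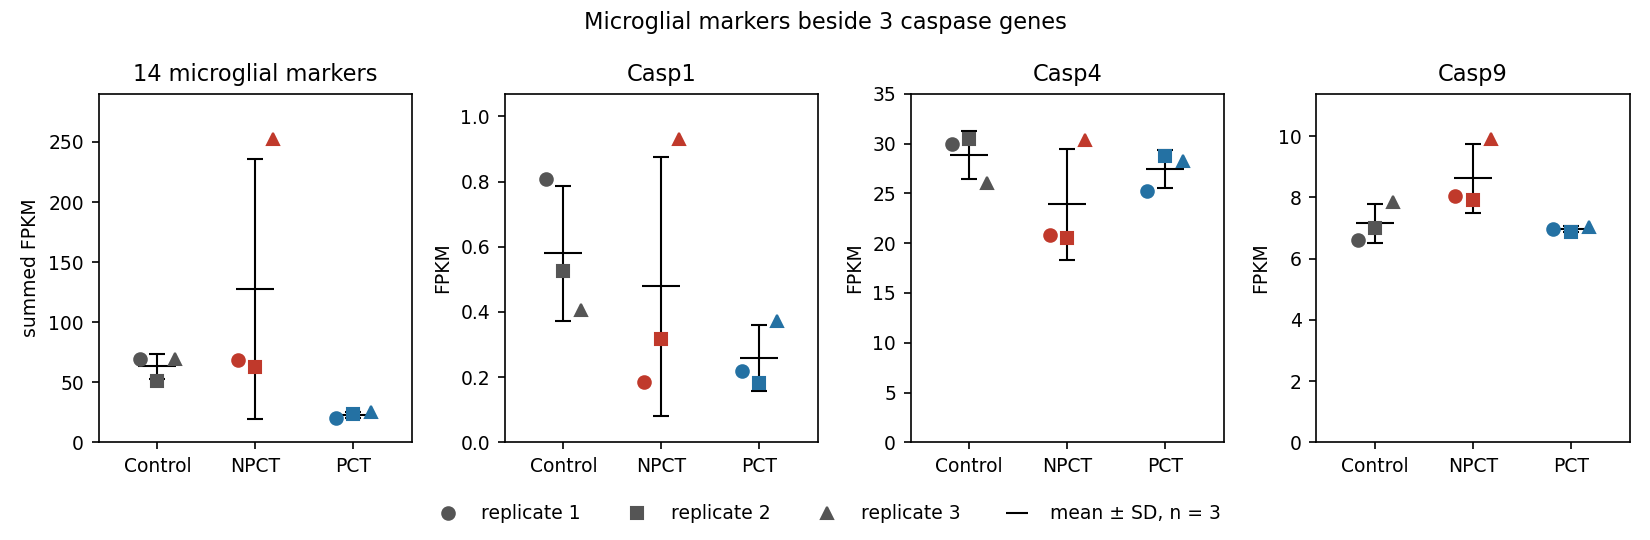
Summed level of 14 microglial markers and the levels of Casp1, Casp4 and Casp9 (FPKM, linear axes from 0) in each library, with the mean ± SD of each group (n = 3). NPCT replicate 3 (triangle) has a marker sum of 252 FPKM and is the highest NPCT library for each of the 3 caspases, and the PCT libraries have the lowest marker sums, 20.0 to 25.3 FPKM.

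The genes that act beside the members were taken from 7 lists of 48 symbols, of which 39 were in the table and 31 were tested. With NPCT, 0 of 31 were called (limma, and 3 higher and 3 lower at an unadjusted p under 0.05), where 0.219% of all genes were called and 29.3% passed the unadjusted limit. With PCT, 1 of 31 was called, and it was lower (3 higher and 4 lower at an unadjusted p under 0.05), where 2.31% of all genes were called and 18.9% passed the unadjusted limit. Between the peptides, 3 of 31 were called, all higher with NPCT, where 5.75% of all genes were called. At an unadjusted p under 0.05 in this contrast, 3 were higher and 4 lower with NPCT, where 33.1% of all genes passed. Set against these backgrounds, the counts are no result about the lists. The median log2 fold change of the 31 was -0.0061 with NPCT and 0.05 with PCT, and -0.055 for NPCT against PCT. From each list the gene with the smallest p in each comparison with Control is described, and every called gene.

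Among the other genes of the caspase family and its binding partners, 0 of 3 tested genes were called in any comparison. Casp8ap2, which encodes a protein that binds caspase-8, measured 4.04 ± 0.421 FPKM in Control and 3.40 ± 0.335 with NPCT (SD, n = 3), and the groups overlapped. Its log2 fold change was -0.24 (standard error 0.127, unadjusted p = 0.0877, adjusted p = 0.234 in limma), and it was -0.08 once the gene length trend was removed. Casp12, the third gene of the chromosome 8 cluster, measured 2.68 ± 0.404 FPKM in Control and 1.49 ± 0.484 with PCT, a log2 fold change of -0.85 (unadjusted p = 0.0173, adjusted p = 0.151 in limma) from 19 to 61 fragments per library.

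Of the IAPs, 0 of 5 tested genes were called. Xiap, which binds caspase-9 directly, measured 11.3 ± 0.160 FPKM in Control, 8.40 ± 0.178 with NPCT and 9.56 ± 0.945 with PCT. Both peptide groups lay below Control without overlap, with log2 fold changes of -0.42 (adjusted p = 0.0508 in limma) and -0.24 (adjusted p = 0.162). The adjusted p of Xiap with NPCT was above 0.05 in 11 of 19 alternative settings and ran from 0.0061 to 0.169, with a fold change under 1.5 throughout. Among the factors released from mitochondria, 0 of 4 were called. Their log2 fold changes ran from 0.013 to 0.64 with NPCT and from 0.049 to 0.38 with PCT. The share of all genes above 0 was not counted, so the sign is no result about this list. Cycs, cytochrome c, measured 72.5 ± 3.72 FPKM in Control, 73.1 ± 2.18 with NPCT and 94.8 ± 9.14 with PCT, a log2 fold change of 0.38 with PCT (adjusted p = 0.0291 in limma, under the fold limit). The adjusted p of Cycs was above 0.05 in 9 of 19 alternative settings, at most 0.109 without Control replicate 3. Htra2, a protease that also counters IAPs, measured 15.4 ± 1.28 FPKM in Control and 21.1 ± 1.63 with NPCT, a log2 fold change of 0.45 (adjusted p = 0.0896 in limma).

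Neither upstream platform held a called gene. Of the death receptor list, 0 of 6 tested genes had an unadjusted p under 0.05 in a comparison with Control, the smallest p being that of the adaptor Tradd with NPCT (log2 fold change 0.29, unadjusted p = 0.308, and 0.15 without NPCT replicate 3) and that of the receptor Fas with PCT (0.24, unadjusted p = 0.109). Of the PIDDosome list, the adaptor Cradd was the 1 gene tested, with log2 fold changes of 0.28 with NPCT (adjusted p = 0.389 in limma) and 0.20 with PCT (adjusted p = 0.671). Without Control replicate 1 the former was 0.07 and the sign of the latter turned to -0.01.

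The calls fell in the list of the inflammasome and its substrates, of which 6 of 9 genes in the table were tested. Il18, a cytokine cleaved by caspase-1, measured 2.91, 2.13 and 3.43 FPKM in Control, 2.77, 2.14 and 2.19 with NPCT and 1.00, 0.629 and 0.849 with PCT. The PCT libraries were all below the others, with a log2 fold change of -1.65 against Control (standard error 0.238, adjusted p = 0.00731 in limma). Between NPCT and PCT the log2 difference of Il18 was 1.42 (adjusted p = 0.00776). With a pseudocount of 1 in place of 0.1 these values were -1.05 and 0.88, both still called. Gsdmd, the pore-forming substrate of caspase-1 and caspase-4, was 2.71 ± 0.239 FPKM in Control, 3.41 ± 0.145 with NPCT and 1.94 ± 0.172 with PCT. It lay above Control with NPCT (log2 fold change 0.32, adjusted p = 0.142 in limma) and below it with PCT (-0.47, adjusted p = 0.0898), neither called, and the difference between NPCT and PCT was called at 0.79 (standard error 0.132, adjusted p = 0.00773). Pycard, the inflammasome adaptor ASC, measured 0.844, 0.652 and 0.969 FPKM in Control, 1.16, 1.50 and 3.07 with NPCT and 0.218, 0.304 and 0.738 with PCT. The difference between NPCT and PCT was called at 1.96 (standard error 0.466, adjusted p = 0.0259), but it rested on 3 to 44 fragments per library and the call was lost in 5 of 19 alternative settings. These were the fits without NPCT replicate 2 (2.07, adjusted p = 0.0553), NPCT replicate 3 (1.57, 0.0761), PCT replicate 1 (1.68, 0.0798) or PCT replicate 2 (1.85, 0.0783) and the fit of NPCT and PCT alone (1.96, 0.0737). The difference was 0.99 with a pseudocount of 1 and 2.22 with a pseudocount of 0.01. Against Control, 6 of 14 microglial and 5 of 9 astrocyte markers were called lower with PCT and none higher, where 2.31% of all genes were called. Of the microglial markers, 12 of 14 had an unadjusted p under 0.05 between NPCT and PCT, all higher with NPCT, where 33.1% of all genes passed. The part of these markers in the calls was not tested.

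Of 6 tested apoptotic substrates, 0 were called. Rock1, a kinase that caspases activate by cleavage, measured 24.4 ± 1.40 FPKM in Control and 17.7 ± 2.83 with NPCT, a log2 fold change of -0.48 (adjusted p = 0.0595 in limma), which was -0.34 once the gene length trend was removed. Cad, a pyrimidine synthesis enzyme cleaved in apoptosis, measured 10.6 ± 0.0998 FPKM in Control and 12.1 ± 0.314 with PCT, a log2 fold change of 0.19 (adjusted p = 0.148).

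**Figure D4:**
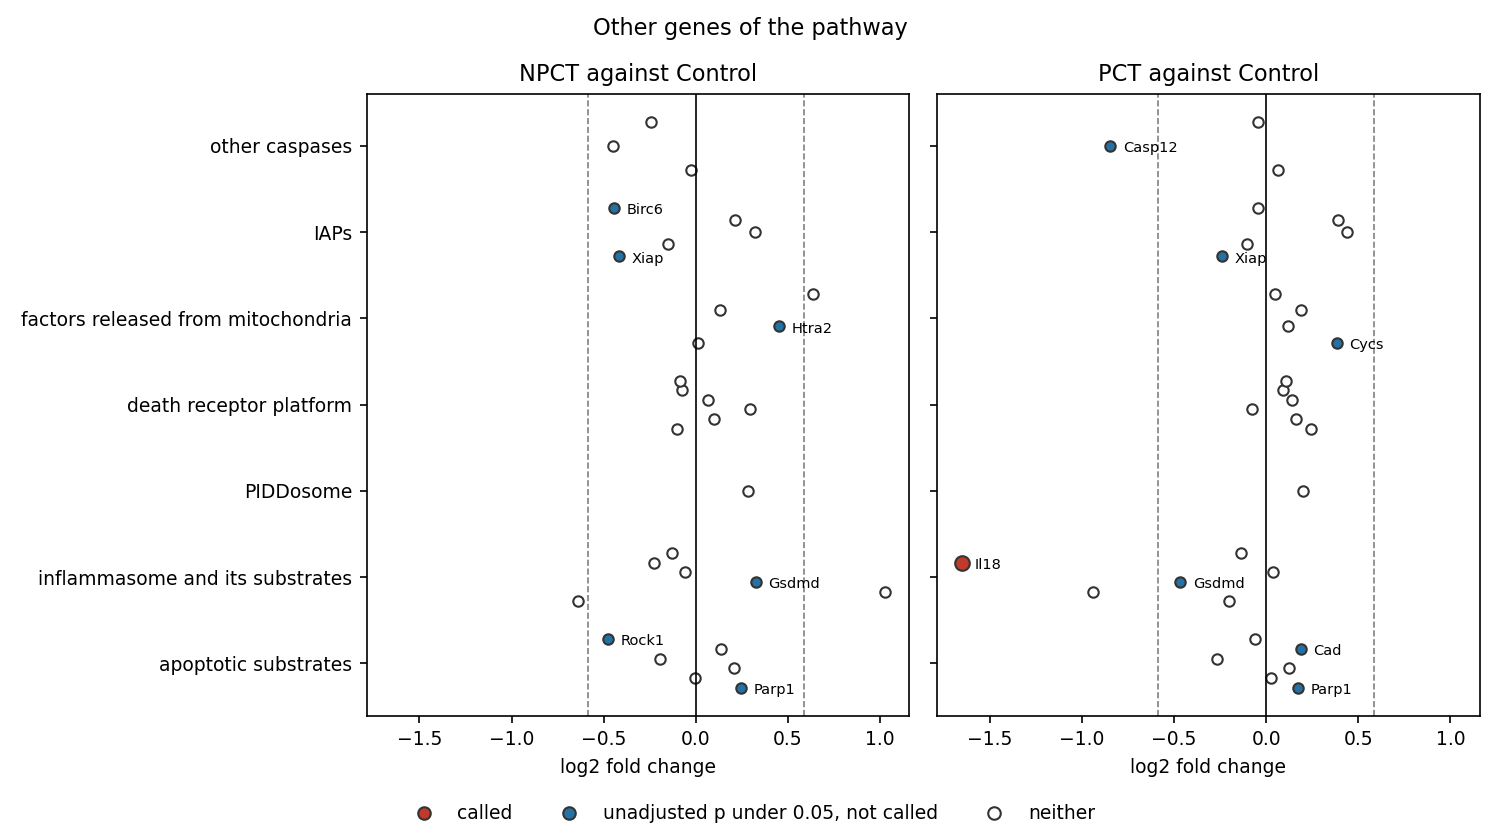
Log2 fold change of the 31 tested genes of the pathway lists (1 point per gene, rows are lists) for NPCT and for PCT against Control, with dashed lines at a 1.5-fold change. Il18 with PCT (-1.65) is the only called gene in either panel, and filled blue points mark genes with an unadjusted p under 0.05.

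Across the 9 libraries, the levels of the tested members were also set against each other on the log2 scale, as a description over libraries that share the 3 treatments. Casp2 ran against Casp9 (Pearson r = -0.82) and Diablo (-0.81) and with Apaf1 (0.65), and Casp9 ran with Diablo (0.72), whereas Casp4 had no correlation beyond 0.36 in size with any member. Among 14976 tested genes with a symbol, the profile most like that of Casp2 was Ppp3cc (0.97), with AABR07040095.1 (0.97) and Mturn (0.97) next. For Casp9 the most alike were Sema3b (0.96), Ifi30 (0.95) and Krt8 (0.94), and for Apaf1 they were Mtmr9 (0.96), Podxl (0.93) and Shtn1 (0.93). For Diablo they were Gpsm3 (0.96), Adprh (0.95) and Me3 (0.93), and for Casp4 Commd9 (0.94), Spry2 (0.92) and RF00153 (0.90). These correlations were picked as the highest among so many genes over only 9 libraries, and the size expected by chance was not tested.

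The smallest two-sided p that exact permutation of 3 and 3 libraries allows is 0.1, so the p-values of single members rest on the spread that limma shares across genes. These values concern mRNA, and cleavage of the caspase precursors was not measured by this assay.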

How the data were processed

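RNA of 9 libraries (3 each of Control, NPCT and PCT) was measured. Per the labels and methods, the authors aligned reads to Rnor_6.0 with HISAT2 2.0.5, counted them per gene with featureCounts 1.5.0-p3 and computed FPKM, and they tested counts with DESeq2 1.20.0. The deposited table holds FPKM, so limma 3.58.1 in R 4.3.3 was used here instead. Multiplied by gene length, 100% of the nonzero FPKM fell on whole steps of their library (tolerance 0.05 fragments), which recovered the fragments. Totals were 13573056 to 17211642 per library. Each library's median ratio to the geometric mean was 1.01, so the deposited FPKM already share a common scale.

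log2(FPKM divided by that ratio + 0.1) was fitted over all 9 libraries with a trended prior variance in the 15958 genes whose FPKM averaged 0.5 or more. Fold changes are on this scale, which understates those of low genes. P-values were adjusted over all genes tested. The 9 columns used are those of the 9 samples. Replicate numbers were not used to pair libraries, because departures from the group means correlated at -0.072 to 0.034 between libraries of the same number. Named genes of the pathway lists were those with the smallest p in each comparison with Control and those called, and 1 listed gene is not reported here. The members and lists were chosen with earlier results of these data known. Alternatives were 10 other settings and 9 fits without a library each. The processing was tested on simulated data, and no result of that test is given here. Sums, motifs and figures were made in Python with pandas and matplotlib.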

Additional observations from a re-analysis of the deposited data

Results flagged for a closer look

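The results for Pycard, Gsdmd and Il18 are listed because the effects of NPCT and PCT differed in the direct test between the peptides (limma, all 9 libraries, 3 of 31 pathway genes, where 5.75% of all 15958 genes were called in the same contrast). The log2 difference of NPCT against PCT was 1.96 for Pycard, 0.79 for Gsdmd and 1.42 for Il18, with adjusted p of 0.0259, 0.00773 and 0.00776. The call of Pycard was lost in 5 of 19 alternative settings, and its value was 0.99 with a pseudocount of 1. Gsdmd and Il18 stayed called in 19 of 19, with Il18 at 0.88 with a pseudocount of 1. The sum of the microglial markers was 62.7 to 252 FPKM in NPCT libraries and 20.0 to 25.3 FPKM in PCT libraries, and its part in these differences was not tested.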

How the results depend on the processing

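The number of called members stayed at 0 in each of the 3 comparisons in 19 of 19 alternative settings, namely pseudocounts of 0.01 and 1, a stricter filter (mean FPKM 1), no filter, FPKM as deposited, quantile normalization, limma-voom, fits restricted to 2 groups, the replicate block, removal of the gene length trend and each library left out. With the replicate block, 0 members were called in each comparison. The share of all genes called as reported was at most 5.75% in any comparison, so a count of 0 is no result about the members. Over all genes, the count of calls ran from 0 to 579 for NPCT against Control (35 as reported), with 579 in the fit of only the 2 groups, 561 without PCT replicate 3, 357 with limma-voom, 319 with the replicate block, 221 without PCT replicate 1, 208 at a mean FPKM of at least 1, 189 with quantile normalization, 122 without the length trend, 9 without a filter, 1 without PCT replicate 2, and 0 to 2 without any 1 Control or NPCT library. It ran from 173 to 398 for PCT against Control (368) and from 454 to 1620 for NPCT against PCT (918), where 1620 was without PCT replicate 3. For NPCT against Control the smallest adjusted p of any gene was 0.0493 in the reported fit (limma), just under the limit of 0.05. The cause of these ranges was not tested.

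Some members reached an adjusted p of at most 0.05 with a fold change under 1.5. For NPCT against Control these were Apaf1 with limma-voom (0.0455), in the 2-group fit (0.0297) and without PCT replicate 3 (0.0370), and Casp2 without PCT replicate 3 (0.0376). Of the log2 fold changes recomputed in these settings, 2 turned sign in 1 setting each. Casp9 with PCT (-0.035) was 0.0346 without Control replicate 3, with leave-one-out values from -0.0879 to 0.0346, and Cradd with PCT (0.20) was -0.0131 without Control replicate 1, with leave-one-out values from -0.0131 to 0.336. Values of Casp1 and Casp6 without a filter and with each library left out were added after seeing the data, and for PCT against Control they ran from -1.13 to -0.68 for Casp1 and from -1.64 to -0.74 for Casp6. At 1 to 24 fragments per library, depth limits what can be said of Casp1, Casp6 and Casp8.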
